A study of Mus musculus with 6 samples.

Results

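The mRNAs of the cytosolic translation factors other than eIF2 were examined in B16F10 cells, a mouse melanoma line, with and without knockdown of OSGEP. The set was chosen by gene symbol alone: every gene of the initiation factor families eIF1, eIF3, eIF4, eIF5 and eIF6, of the elongation factor families eEF1 and eEF2, and the release factor genes Etf1 and Gspt1, without pseudogenes and without Eif4ebp1 and Eef1e1. It held 56 of the 55487 genes in the count table, and 51 of them passed the filter on low counts, against 12669 genes in all. The remaining 5 were nearly silent. Eif4e1b and Eif4a3l1 had 0 counts in all 6 libraries, which allows a level of up to between 0.116 and 0.147 CPM (counts scaled to library size). Eif4a3l2 had 1 to 4 counts per library, Eef1akmt3 had 0 to 10, and Eif4ebp3 had 10 counts in 1 shCtr library and 0 in the others.

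The KEOPS complex, whose catalytic subunit is OSGEP, adds t6A to the tRNAs that read codons starting with A. The shCtr group was B16F10 cells with a control shRNA, the shOSGEP group was B16F10 cells with shRNA number 2 against OSGEP, and both carried an otherwise wild-type genotype. Each group had 3 libraries of polyA RNA, from independent infections, and the labels give both groups the replicate numbers 1 to 3. The shRNAs were delivered with lentivirus, a single hairpin stood for the knockdown, and the libraries came from whole cultures, so that fewer cells of one kind and less RNA per cell cannot be told apart.

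Translation begins when eIF4F (the cap-binding eIF4E, the scaffold eIF4G and the helicase eIF4A) loads the small ribosomal subunit with eIF3, eIF1 and eIF1A onto an mRNA. eIF5 and eIF5B then commit the scanning ribosome to a start codon and join the large subunit. eEF1A delivers aminoacyl-tRNAs, the eEF1B subunits recharge it with GTP, eEF2 moves the ribosome along, eIF5A relieves stalled peptide bonds, and eRF1 and eRF3 (Etf1 and Gspt1) release the finished chain. Many elongation factor mRNAs begin with a terminal oligopyrimidine tract (TOP mRNAs) and are under the control of mTOR.

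The factors with the highest and the lowest Log2FC each have a related paralogue, so both pairs are shown by sequence. eIF4A1 and eIF4A2 are closely related helicases of eIF4F, and their last 90 coding bases before the stop codon (GENCODE M21, GRCm38, each in 1 exon) differed at 16 positions, an identity of 82.2%. Sequences are written 5′ to 3′, and capitals mark the bases that differ.
Eif4a1, chr11:69667476-69667565, minus strand: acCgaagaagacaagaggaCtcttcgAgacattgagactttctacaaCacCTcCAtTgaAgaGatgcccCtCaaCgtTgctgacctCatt
Eif4a2, chr16:23113219-23113308, plus strand: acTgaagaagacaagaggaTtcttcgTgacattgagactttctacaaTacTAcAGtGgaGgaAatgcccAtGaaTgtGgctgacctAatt
eEF1A1 is the common form of the tRNA carrier and eEF1A2 the form known from muscle and neurons. Their first 90 coding bases differed at 15 positions, an identity of 83.3%, with capitals used as above.
Eef1a1, chr9:78480565-78480654, minus strand: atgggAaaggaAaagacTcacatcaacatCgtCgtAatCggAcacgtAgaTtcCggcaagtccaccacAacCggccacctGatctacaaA
Eef1a2, chr2:181155317-181155406, minus strand: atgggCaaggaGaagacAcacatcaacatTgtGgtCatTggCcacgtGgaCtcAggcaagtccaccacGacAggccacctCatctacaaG
The Log2FC of the Eif4a pair had opposite signs, with unadjusted p = 0.604 for Eif4a1 and 0.313 for Eif4a2 by edgeR. The 150 bases before the RefSeq start of this pair (GRCm38.p6) are given, with each CCAAT in capitals. A link between these bases and the mRNA levels was not tested.
Eif4a1, chr11:69672424-69672573, minus strand: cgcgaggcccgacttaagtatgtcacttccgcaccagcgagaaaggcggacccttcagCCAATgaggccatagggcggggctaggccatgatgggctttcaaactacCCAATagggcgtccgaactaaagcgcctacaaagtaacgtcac
Eif4a2, chr16:23107318-23107467, plus strand: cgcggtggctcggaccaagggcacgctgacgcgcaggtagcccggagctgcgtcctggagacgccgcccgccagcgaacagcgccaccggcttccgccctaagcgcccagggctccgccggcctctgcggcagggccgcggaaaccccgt
Eif4a1 held 2 CCAAT and Eif4a2 none. CCAAT or its reverse complement ATTGG was found in this window in 10 of 54 promoters of the factors (18.5%, 40 genes matched in RefSeq) and in 24.5% of all 32851 promoters.

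Depth ran from 18915587 to 29487384 counts per library. shCtr replicate 2 stood apart, with a TMM scaling factor of 0.690 against 1.04 to 1.14 in the others. A trend on transcript GC content and length took up 63.0% of the variance of its deviations from the mean of all libraries, and 17.6% to 53.6% in the others. All 7 melanoma markers were detected in every library, the lowest value being 29.3 CPM for Mitf in shCtr replicate 2, while of 8 markers of other cell types none passed 7.47 CPM and Ptprc, Cd3e, Epcam and Alb were at 0. shOSGEP replicate 2 had the lowest Tyr, Tyrp1, Dct, Mlana, Pmel and Sox10, with Dct at 723 CPM against 4041 to 7119.5 CPM in the others. The part of these library differences in the results below was not tested, and values without replicate number 2 are given where they move a result. Osgep itself was at 20.6, 58.6 and 21.8 CPM with the control shRNA and 4.28, 0.542 and 5.52 CPM with shOSGEP, without overlap. Its Log2FC was -3.29 (SE 0.876, unadjusted p = 0.00524 and adjusted p = 1.00 by edgeR's quasi-likelihood test, adjusted p = 0.0386 by DESeq2). Between same-numbered libraries the log2 difference of Osgep was -2.27, -6.76 and -1.98 in numbers 1 to 3. Number 2 thus held the largest fall of Osgep as well as the library differences above, and their parts cannot be told apart. Values without number 2 also leave out that largest fall.

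To ask whether knockdown of OSGEP was accompanied by another supply of translation factors, shOSGEP was compared with shCtr for each of the 51 factors. In the edgeR fit no factor rose and 1, Eef1a2, fell at the threshold of the study, which uses an unadjusted p. Another criterion was an adjusted p under 0.05 in limma-voom with quality weights and the replicate number as a block. By it Eif4a2, Eif4a3 and Eef1b2 passed, Eef1a2 did not (adjusted p = 0.0572), and 11.1% of all genes tested did. A total of 18 had a higher and 33 a lower mean in shOSGEP, with Log2FC from -2.51 to 1.04 and a median of -0.24, against -0.03 over all genes tested. With edgeR's quasi-likelihood test no factor had an adjusted p under 0.05 (smallest adjusted p 1.00), 1 had an unadjusted p under 0.05, and DESeq2 gave 0 at the adjusted level. The threshold of the study was a Log2FC beyond 0.5 either way with an unadjusted p under 0.05, and 1 of the 51 passed it, against 2.02% of all genes tested. None passed upward, against 1.59% of all genes, and 1 passed downward, against 0.426%. The same gene, Eef1a2, was the only factor whose CPM did not overlap between the groups, against 6.36% of all genes tested. A count of 1 is too small to set apart from these shares. In this edgeR fit the median SE of the factors was 0.595 on the log2 scale, so that moderate changes were not detectable by it. What is detectable depends on the model, since the SE of Eif4a2 was 0.972 in this fit and 0.145 in the limma-voom model with the block.

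The 3 replicate numbers gave different pictures of the same factors. The median of log2(shOSGEP/shCtr) between same-numbered libraries was -0.08 for number 1, -0.53 for number 2 and 0.04 for number 3. The median Log2FC was -0.021 without shCtr replicate 2 and 0.0081 without replicate number 2. In number 1, 47 of the 51 factors lay within 0.5 of 0 on the log2 scale, and in number 3, 48 did. In number 2 only 7 did and 32 lay beyond 1. Of the 12520 genes with no library at 0, 82.7% lay within 0.5 in number 1 and 86.5% in number 3. In number 2 24.6% of these genes did, and 6388 lay beyond 1. Within 0.5 in both numbers 1 and 3 were 46 of 51 (90.2%), against 75.7% of the 12520 genes with no library at 0. The direction was the same in all 3 numbers for 19 factors (37.3%), 7 higher and 12 lower, against 34.8% of those genes. Like those genes as a whole, the factor mRNAs were tight in 2 replicate numbers and spread widely in the other. Their share of one-way genes was close to the background.

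**Figure D1:**
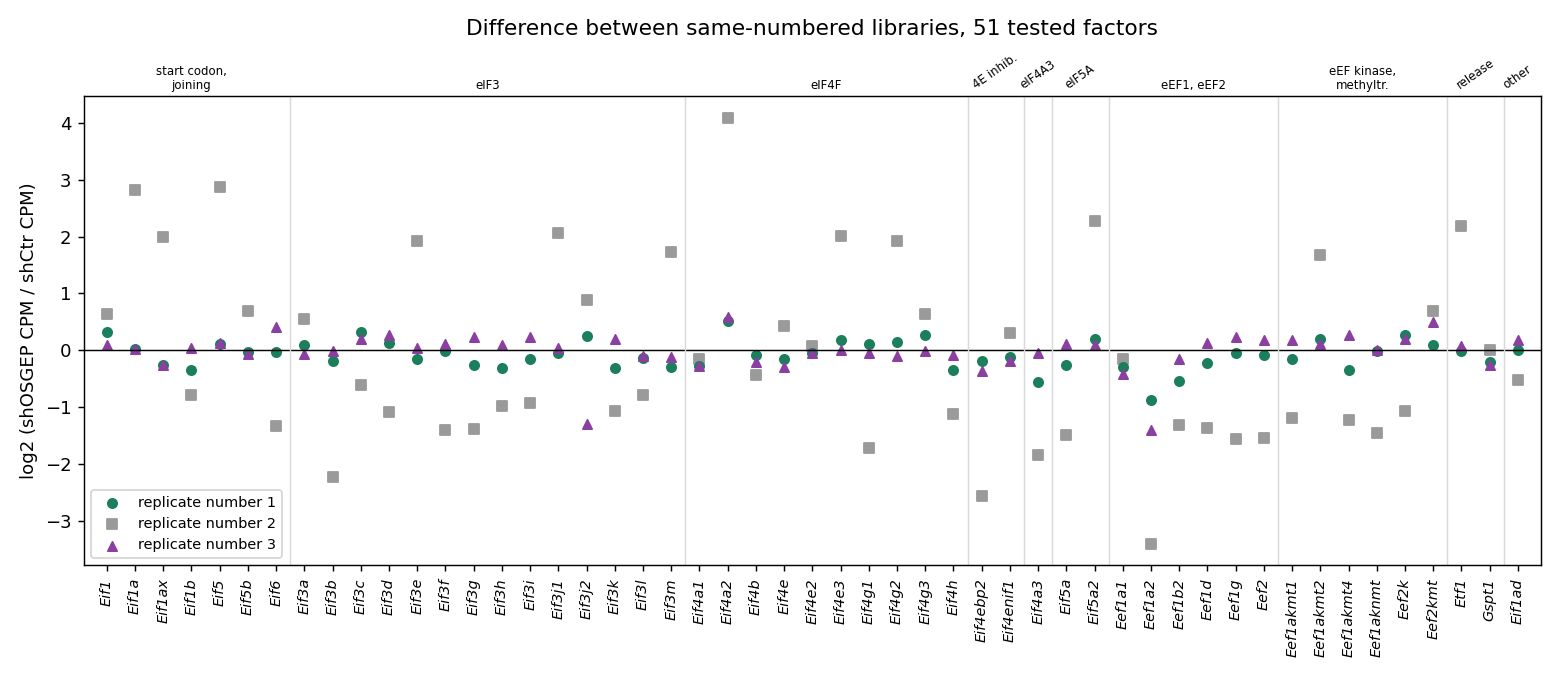
Log2 ratio of CPM, shOSGEP over shCtr, between same-numbered libraries (vertical axis) for the 51 tested factors, grouped by role (horizontal axis); circles, squares and triangles are replicate numbers 1, 2 and 3. Most circles and triangles lie within 0.5 of 0, while 32 of the squares lie beyond 1, from -3.41 for Eef1a2 to 4.09 for Eif4a2.

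The mRNAs of eEF1 and eEF2 made up most of the factor mRNA, with 1.65%, 2.20% and 2.17% of all counts in shCtr and 1.44%, 2.00% and 1.92% in shOSGEP. All 56 factors together took 2.84%, 3.60% and 3.55% of the counts in shCtr and 2.66%, 3.29% and 3.30% in shOSGEP, and the shares of the 2 groups overlapped. For the eEF1 and eEF2 mRNAs and for all factors alike, each shOSGEP library had a smaller share than the shCtr library of its number, which was not tested. Eef1a1 alone (chr9:78478449-78489151) took 1.12%, 0.955% and 1.36% in shCtr and 0.952%, 1.32% and 1.01% in shOSGEP. Per transcript length it was the most abundant factor, at 11975 TPM (a level scaled to transcript length and library total, computed here) over the 6 libraries, followed by Eef2 at 2946, Eif5a at 1789.8 and Eef1g at 1574 TPM.

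The 6 mRNAs of eEF1 and eEF2 all had a lower mean in shOSGEP, with a median Log2FC of -0.70, and 1 of them passed the threshold of the study. By number their median difference was -0.26, -1.46 and -0.02. Eef1a1 was at 10250.4, 13845 and 13007 CPM across shCtr and 8379, 12363 and 9711 CPM across shOSGEP, a Log2FC of -0.28 (SE 0.541, unadjusted p = 0.612 by edgeR). The groups overlapped after TMM scaling. Each shOSGEP library was then below the shCtr library of its number, with log2 differences of -0.29, -0.16 and -0.42. Before this scaling number 2 went the other way, with Eef1a1 at 0.955% of the counts in shCtr and 1.32% in shOSGEP. Of the 31-base words of the Eef1a1 transcript 74.8% also occur in other annotated genes, so the division of its reads is uncertain.

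Eef1b2, the exchange factor subunit eEF1Bα, was at 841, 2406 and 974 CPM in the shCtr libraries against 575, 960.2 and 873 CPM in the shOSGEP ones. Its Log2FC was -0.81 (SE 0.552, unadjusted p = 0.179 by edgeR), with -0.55, -1.33 and -0.16 in numbers 1 to 3, and -0.32 without number 2. Eef1b2 overlaps Ndufs1 on the opposite strand, so reads of this neighbour may be counted with it. Eef1d, Eef1g and Eef2 had lower values in numbers 1 and 2 and higher values in number 3. For Eef2, the translocase, the shCtr libraries held 2834, 10688 and 5111 CPM and the shOSGEP libraries 2675, 3647 and 5811 CPM. The control value of 10688 CPM came from replicate 2, and the other values of both groups interleaved.

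Eef1a2 (ENSMUSG00000016349, chr2:181147653-181157014) fell at the threshold of the study, and it was a trace mRNA. It had 10, 84 and 17 counts in shCtr and 5, 10 and 7 counts in shOSGEP, equal to 0.425, 4.13 and 0.784 CPM against 0.233, 0.387 and 0.297 CPM. Its Log2FC was -2.51 (SE 0.925, unadjusted p = 0.0257, adjusted p = 1.00 by edgeR), and all 3 numbers pointed down, at -0.87, -3.41 and -1.40. The 84 counts of shCtr replicate 2 made up most of its control counts. Eef1a2 had the highest GC content of the factors (60.6%) and stood 2.77 higher on the log2 scale in that library than in the other shCtr libraries. Without shCtr replicate 2, or without replicate number 2, it was below the count filter and had no test. It also lost its call when any 1 of the shOSGEP libraries was left out, with Log2FC from -2.68 to -2.35, and kept it without shCtr replicate 1 or 3.

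**Figure D2:**
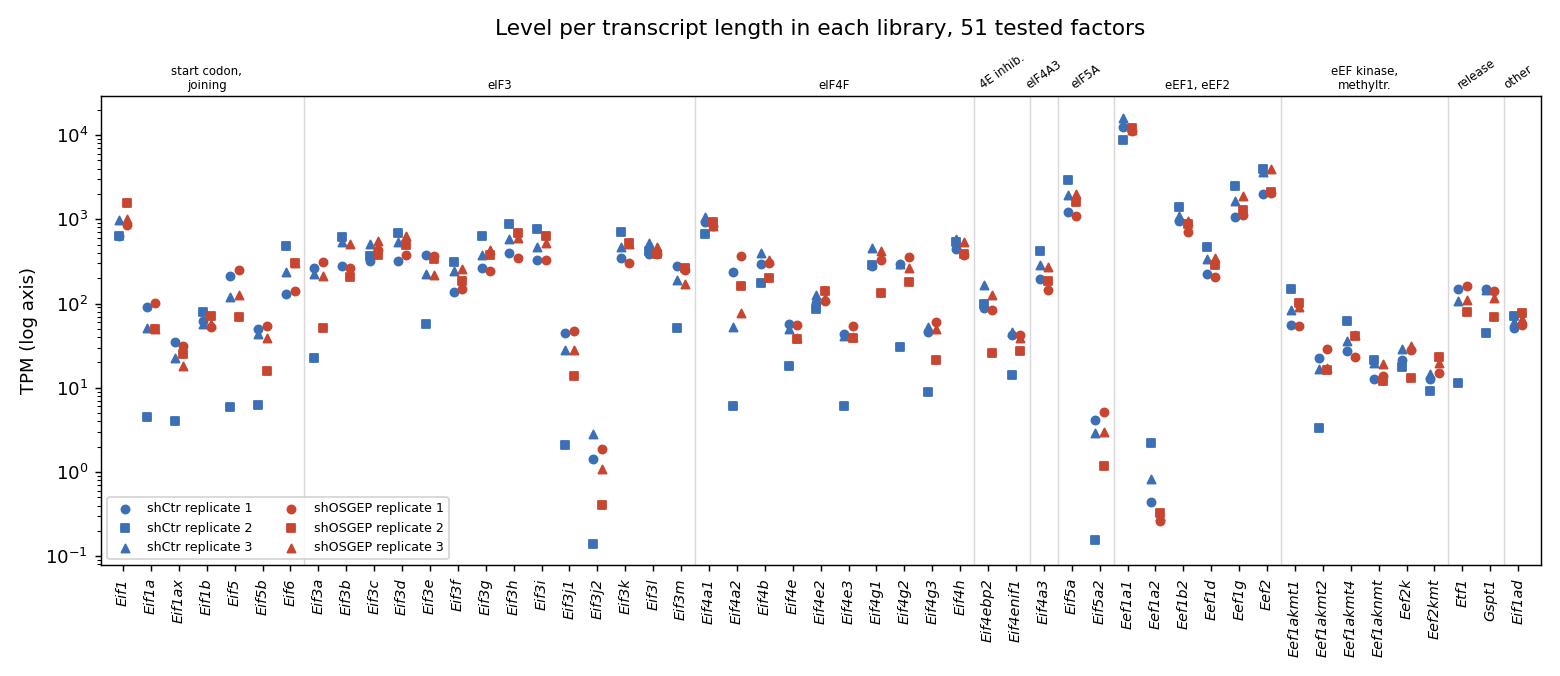
Level of the 51 tested factors in each of the 6 libraries in TPM on a log axis, grouped by role; blue is shCtr, red is shOSGEP, and circles, squares and triangles are replicates 1, 2 and 3. Eef1a1 stands highest (mean 11975 TPM) and Eef1a2 lowest (mean 0.734 TPM), and the blue squares of shCtr replicate 2 leave the other libraries downward or upward for most factors.

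The enzymes that modify the elongation factors were 6 tested genes, 2 with a higher and 4 with a lower mean, with a median Log2FC of -0.40 and none past the threshold. By number their median difference was 0.04, -1.13 and 0.19. Eef2kmt, the lysine methyltransferase of eEF2, was at 12.7, 17.8 and 14.4 CPM with the control shRNA and 13.6, 28.6 and 20.3 CPM with shOSGEP. Its Log2FC was 0.47 (SE 0.454, unadjusted p = 0.326 by edgeR), with 0.09, 0.68 and 0.49 in the 3 numbers. It overlaps Alg1 on the opposite strand, and 28.9% of its 31-base words are shared, so reads of the neighbours may be mixed. Eef1aknmt, a methyltransferase of eEF1A, had a Log2FC of -0.64 (SE 0.517, unadjusted p = 0.252 by edgeR), but differed by only -0.01 in number 1 and by less than that in number 3, and had -0.0011 without number 2. Eef1akmt1, also a methyltransferase of eEF1A and the most abundant of the group per length, had a Log2FC of -0.66 (SE 0.678, unadjusted p = 0.358 by edgeR), with -0.15, -1.19 and 0.17 in the 3 numbers, and 0.057 without number 2.

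The start codon and subunit joining factors were the group with the highest median, 0.28, with 5 higher and 2 lower means and none past the threshold. By number their median difference was -0.03, 0.69 and 0.04, so the high median came from number 2. Eif1, the gatekeeper of start codon choice, was at 381, 750.1 and 586 CPM across shCtr and 478, 1166 and 624 CPM across shOSGEP. Its Log2FC was 0.40 (SE 0.507, unadjusted p = 0.452 by edgeR, and 0.19 without number 2), and each shOSGEP library was above the shCtr library of its number, by 0.33, 0.64 and 0.09. Of the 31-base words of Eif1 37.2% also occur in other annotated genes. Eif1a, one of the genes for eIF1A, differed by 0.03, 2.81 and 0.02 in numbers 1 to 3. Its X-linked paralogue Eif1ax differed by -0.27, 2.00 and -0.25, so that the positive Log2FC of 0.28 (SE 0.570) had the opposite sign to 2 of the 3 numbers. Eif6, which keeps the ribosomal subunits apart, was at 90.6, 643 and 159 CPM in the shCtr libraries against 88.2, 256 and 212 CPM in the shOSGEP ones, with a Log2FC of -0.68 (SE 0.759). In Eif1a, Eif1ax and Eif6 alike the large difference was in number 2, and without it their Log2FC was 0.024, -0.26 and 0.27.

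Of the 14 genes of eIF3, the scaffold of the preinitiation complex, 4 had a higher and 10 a lower mean, with a median Log2FC of -0.44 and none past the threshold. The lowest Log2FC was that of Eif3b, the RNA-binding core subunit, at -0.98 (SE 0.628, unadjusted p = 0.158 by edgeR). Its levels were 377, 1627 and 709 CPM with the control shRNA and 330.5, 347 and 701 CPM with shOSGEP, and the differences in the 3 numbers were -0.19, -2.23 and -0.02. In numbers 1 and 3 the eIF3 median was -0.14 and 0.07, against -0.86 in number 2. Eif3h, the most abundant eIF3 mRNA per length, gave -0.32, -0.98 and 0.10. Eif3g, the subunit next to the mRNA entry channel, gave -0.26, -1.39 and 0.23. Without number 2 the Log2FC of Eif3b, Eif3h and Eif3g was -0.067, -0.053 and 0.057.

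The levels of the eIF3 mRNAs relative to each other showed how even a library was. Over the 12 subunit genes other than Eif3j1 and Eif3j2, the highest TPM was 2.90 and 3.02 times the lowest in shCtr replicates 1 and 3, and 2.92 and 3.71 times in shOSGEP replicates 1 and 3. In replicate 2 it was 38.7 times in shCtr and 13.3 times in shOSGEP, with Eif3a lowest in both (22.4 and 51.4 TPM) and Eif3h highest (867 and 686 TPM). The eIF3 mRNAs thus kept similar levels in 4 of the 6 libraries of both groups and not in those numbered 2.

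The eIF4F genes were evenly divided, with 5 higher and 5 lower means, a median Log2FC of -0.01 and none past the threshold. The cap-binding protein mRNA Eif4e was at 130.4, 81.1 and 113 CPM across shCtr and 117, 109 and 91.6 CPM across shOSGEP, a Log2FC of -0.03 (SE 0.381). Eif4e2, a cap-binding paralogue that represses translation, had a Log2FC of 0.01 (SE 0.411), and Eif4g1, the main scaffold, one of -0.51 (SE 0.520), with 0.10, -1.73 and -0.06 in numbers 1 to 3. Eif4h, which stimulates the helicase, had -0.59 (SE 0.479, unadjusted p = 0.251 by edgeR), with -0.36, -1.13 and -0.08. Eif4g3, a second scaffold gene, had 0.22 (SE 0.525). Without number 2 the Log2FC was 0.011 for Eif4g1, -0.19 for Eif4h, 0.13 for Eif4g3, -0.22 for Eif4e and -0.045 for Eif4e2.

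Eif4a2 (ENSMUSG00000022884, chr16:23107444-23114136) had the highest Log2FC of all factors. It was at 237, 11.9 and 53.3 CPM in the shCtr libraries against 340.1, 203 and 80.1 CPM in the shOSGEP ones, and the groups overlapped, with libraries far apart within both. Each shOSGEP library was above the shCtr library of its number, by 0.52, 4.09 and 0.59. The Log2FC was 1.04 (SE 0.972, unadjusted p = 0.313 by edgeR), and it was 0.53 without replicate number 2 (unadjusted p = 0.570) and 2.67 without shCtr replicate 1 (unadjusted p = 0.0132, past the threshold of the study). In limma-voom with quality weights and the replicate number as a block, its Log2FC was 0.60 with an adjusted p of 0.00102. That limma-voom model had 3 factors at an adjusted p under 0.05, against 11.1% of all genes tested, and the other two were Eif4a3 (-0.43, adjusted p = 0.0263) and Eef1b2 (-0.45, adjusted p = 0.0392). It weighted the libraries numbered 2 at 0.112 and 0.113, those numbered 1 at 4.54 and 4.60 and those numbered 3 at 1.91 and 1.96, so its calls rest mostly on number 1. With the same block in edgeR none of the 3 was called, with Log2FC of 1.60 for Eif4a2, -0.81 for Eif4a3 and -0.67 for Eef1b2 and an adjusted p of 0.741 for each.

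Eif4a1 (chr11:69666936-69672423), the abundant helicase gene, was at 754, 1039 and 849.7 CPM with the control shRNA and 620.5, 935 and 703 CPM with shOSGEP. Its differences were -0.28, -0.15 and -0.27, and its Log2FC was -0.23 (SE 0.419, unadjusted p = 0.604 by edgeR). In TPM, which has no TMM scaling, number 2 went the other way, with 660 in shCtr and 927 in shOSGEP. Of its 31-base words 67.5% also occur in other annotated genes, and 25.0% of those of Eif4a2 do. Eif4a2 also overlaps Rfc4 on the opposite strand and holds small nucleolar RNA genes within its span, so reads of these neighbours may be counted with it.

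Ratios of paralogues within a library do not depend on how libraries are scaled, and 8 pairs were compared. They do not remove library differences that go with GC content, in which paralogues can differ. It was 48.1% for Eif4a1 and 43.2% for Eif4a2, 47.4% for Eef1a1 and 60.6% for Eef1a2, and 55.0% for Eif5a and 38.8% for Eif5a2. The part of GC content in the ratios was not tested. The log2 ratio of Eif4a1 to Eif4a2 was 1.67, 6.44 and 3.99 in shCtr and 0.87, 2.20 and 3.13 in shOSGEP. The mean was lower by 1.97 in shOSGEP (4.04 ± 2.39 against 2.07 ± 1.14, SD, n = 3 each; two-sided exact permutation p = 0.3, adjusted over the 8 pairs 0.48), and it was lower in each number, with differences of -0.80, -4.24 and -0.86. The log2 ratio of Eef1a1 to Eef1a2 was 14.49, 11.70 and 13.98 in shCtr and 14.999, 14.89 and 14.90 in shOSGEP, without overlap. That mean was 1.54 higher in shOSGEP (exact permutation p = 0.1, the smallest that 3 libraries against 3 allow, adjusted 0.48) and 0.72 higher without replicate number 2, with the Eef1a2 side resting on 5 to 17 counts apart from shCtr replicate 2.

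None of the other 6 pairs had an adjusted p under 0.48 by the exact permutation test. Eif1 over Eif1b was 0.72 higher in shOSGEP and Eif1a over Eif1ax 0.46 higher, both higher in 3 of 3 numbers, and they were 0.36 and 0.28 without replicate number 2, the latter 0.090 without shCtr replicate 2. Eif3j1 over Eif3j2 was 0.77 higher, but 94.9% of the 31-base words of Eif3j2 are shared, so the division of reads between them is uncertain. Eif4g1 over Eif4g3 was -0.86 in the same comparison and Eif5a over Eif5a2 -1.39, of which -0.11 and -0.21 were left without replicate number 2. Eif4e over Eif4e2 differed by -0.01, and by -0.18 without number 2. With 3 libraries against 3, no pair could have passed 0.05.

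**Figure D3:**
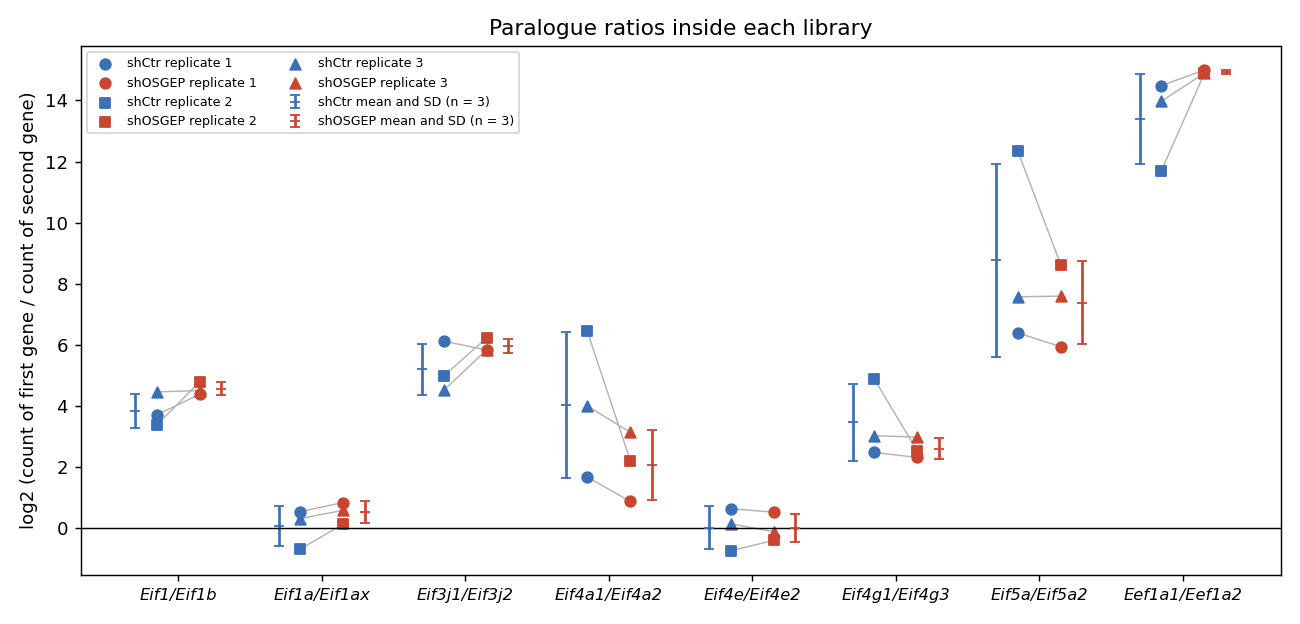
Log2 ratio of the counts of 2 paralogues inside each library (vertical axis) for 8 pairs (horizontal axis); blue is shCtr, red is shOSGEP, symbols are replicates 1 to 3, grey lines join same-numbered libraries, and bars are the mean and SD of 3 libraries. All 3 grey lines of Eif4a1/Eif4a2 go down and all 3 of Eef1a1/Eef1a2 go up, while the blue squares of shCtr replicate 2 lie at the end of the control range in 7 of the 8 pairs.

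Eif4a3, a helicase of the exon junction complex that carries an eIF4A name, was at 136, 566 and 199 CPM across shCtr and 92.5, 158 and 191 CPM across shOSGEP. Its Log2FC was -1.03 (SE 0.606, unadjusted p = 0.126 by edgeR), with -0.56, -1.84 and -0.06 in the 3 numbers, and it was -0.23 without number 2. Of its 31-base words 44.8% also occur in other annotated genes. Eif4ebp2, an inhibitor that holds eIF4E away from eIF4G, was at 235, 504 and 439.8 CPM in the shCtr libraries against 205, 85.4 and 342 CPM in the shOSGEP ones, a Log2FC of -0.90 (SE 0.579, unadjusted p = 0.158 by edgeR). Its differences of -0.20, -2.56 and -0.36 were all downward, and its Log2FC was -0.30 without number 2. Eif4enif1, the nuclear transporter of eIF4E, had a Log2FC of -0.03 (SE 0.390) with a narrow range over the 6 libraries, from 46.7 to 76.2 CPM. It overlaps Drg1 on the opposite strand, so reads of this neighbour may be counted with it.

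Eif5a was at 795, 3697 and 1257 CPM with the control shRNA and 664, 1308 and 1356 CPM with shOSGEP, a Log2FC of -0.79 (SE 0.665), while its rare paralogue Eif5a2 had 0.34 (SE 0.867). Their differences were -0.26 and 0.11 for Eif5a in numbers 1 and 3, and 0.19 and 0.09 for Eif5a2, and without number 2 the Log2FC was -0.016 and 0.15. The release factor mRNAs gave 0.37 (SE 0.644) for Etf1 and -0.18 (SE 0.407) for Gspt1. Etf1 was at 254, 37.0 and 182 CPM across shCtr and 252, 169 and 192 CPM across shOSGEP, level with each other except in the replicates numbered 2, and its Log2FC was 0.029 without them. Eif1ad, which the symbol rule took in and whose product is not a classical initiation factor, had -0.21 (SE 0.506), and 0.11 without number 2. It overlaps Banf1 on the opposite strand, so reads of this neighbour may be counted with it.

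The TOP mRNAs among the factors took a smaller share of the counts in each shOSGEP library than in the shCtr library of its number, at 1.78%, 2.37% and 2.33% in shCtr and 1.56%, 2.16% and 2.07% in shOSGEP, while the differences of the single genes after TMM scaling went both ways. The 9 TOP members (Eef1a1, Eef1b2, Eef1d, Eef1g, Eef2, Eif3e, Eif3f, Eif3h and Eif4b) had 1 higher and 8 lower means and a median Log2FC of -0.62, and none passed the threshold. By number their median was -0.15, -1.33 and 0.10, and it was 0.12 without shCtr replicate 2. In number 1 all 9 were lower, in number 3 only 3 were.

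The sign of a factor's Log2FC went with the GC content of its transcript. Among the 15 factors under 45% GC, the median log2 difference of shCtr replicate 2 from its fellow controls was -2.50, and 13 of the 15 had a higher mean in shOSGEP (median Log2FC 0.35). Among the 17 factors from 45% to 52% the medians were 0.54 and -0.21, and among the 19 factors of 52% and above they were 1.72 and -0.66, with 18 of 19 lower in shOSGEP. Eif5, at 41.7% GC, had 392, 21.5 and 221 CPM in the shCtr libraries. Eif6, at 57.9% GC, had 90.6, 643 and 159 CPM in the same libraries. Low-GC factors were thus scarce and high-GC factors plentiful in shCtr replicate 2. Their Log2FC, which itself includes that library, went the other way.

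Across the 51 factors, Spearman's rho of GC content was 0.83 with the deviation of shCtr replicate 2, -0.71 with the Log2FC, and -0.35, -0.82 and 0.31 with the differences in numbers 1, 2 and 3. Over all genes tested the first of these was 0.73 and the second -0.45. The points share the 6 libraries and are not independent. All genes tested split the same way, with median Log2FC of 0.22 under 45% GC, 0.04 from 45% to 52% and -0.32 at 52% and above. Under 45% GC 2126 of 2840 genes were higher in shOSGEP, and at 52% and above 3834 of 5206 were lower. With offsets for GC content and length the median Log2FC of the factors was -0.26.

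**Figure D4:**
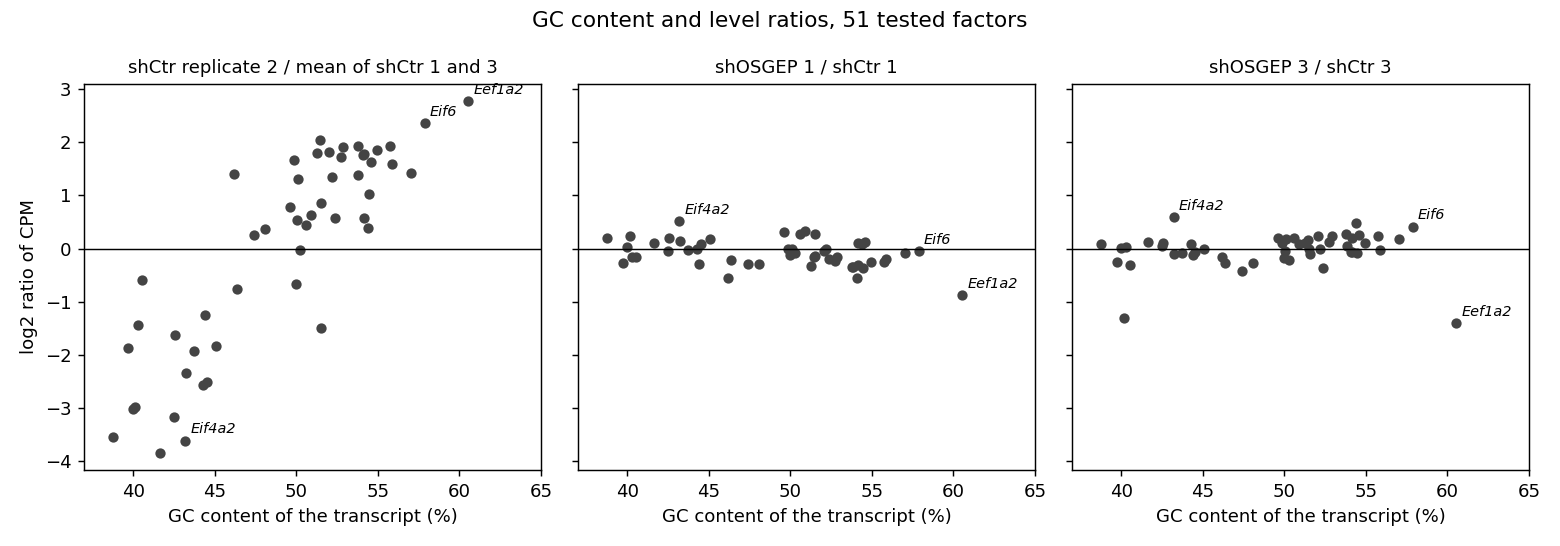
GC content of the transcript (horizontal axis, percent) against a log2 ratio of CPM (vertical axis) for the 51 tested factors: shCtr replicate 2 over the mean of the other shCtr libraries (left), shOSGEP over shCtr in number 1 (middle) and in number 3 (right). The left panel climbs from -3.84 to 2.77 with GC content, while in the other panels most points lie within 0.5 of 0.

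Codons starting with A, the ones read by t6A tRNAs, made up a median of 28.0% of the coding sequence of the factors, against 27.0% over the 11526 genes with a coding sequence. Spearman's rho of that share with the Log2FC was 0.33 across the 51 factors and 0.26 over all genes. In the single numbers 1 and 3 it was -0.03 and -0.24 for the factors and -0.03 and -0.22 over all genes. The share itself ran against GC content (rho -0.38 for the factors, -0.60 for all genes), and the part of GC content in these values was not tested.

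The partners of the factors, a list of 38 genes for poly(A)-binding proteins, ribosome recycling and rescue factors, mTOR pathway kinases and the enzymes that make hypusine on eIF5A and diphthamide on eEF2, were all tested. Their means were higher for 18 and lower for 20, with a median Log2FC of -0.03. None passed the threshold of the study upward and 1 passed downward, against 1.59% and 0.426% of all genes tested. This was Mknk2, a kinase that phosphorylates eIF4E, at 221, 885 and 282 CPM in the shCtr libraries against 123, 41.0 and 231 CPM in the shOSGEP ones. Its Log2FC was -1.81 (SE 0.765, unadjusted p = 0.0444 by edgeR), with -0.85, -4.43 and -0.28 in the 3 numbers. The call was kept in limma-voom with quality weights and the replicate number as a block, at -0.75 with an adjusted p of 1.45e-05. The call was lost in limma-voom with quality weights (-0.84), with the replicate block (-1.69, unadjusted p = 0.119), with offsets and the block (-1.54, unadjusted p = 0.0753) and without shCtr replicate 2 (-0.93), shOSGEP replicate 1 (-1.76), shOSGEP replicate 2 (-1.35) or replicate number 2 (-0.50).

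Gtpbp2, a GTPase that works with Pelota on stalled ribosomes, was the only partner whose groups did not overlap, against 6.36% of all genes tested. It was at 66.8, 88.7 and 60.9 CPM with the control shRNA and 105, 237 and 89.0 CPM with shOSGEP, a Log2FC of 1.00 (SE 0.486, unadjusted p = 0.0732 by edgeR), with 0.66, 1.42 and 0.55 in the 3 numbers. With the replicate block it passed the threshold of the study (0.87, unadjusted p = 0.0303, edgeR), and in limma-voom with quality weights and the block its adjusted p was 0.000219. Without replicate number 2 the Log2FC was 0.61 (unadjusted p = 0.0622). In limma-voom with quality weights and the block 5 of the 38 partners had an adjusted p under 0.05, near the 11.1% of all genes tested, the others being Mknk2 (-0.75), Eif4ebp1 (0.50), Dph2 (-0.48) and Dph3 (-0.48). Eif4ebp1, the inhibitor of eIF4E named here after its values were seen, was higher by 0.41, 0.57 and 0.71 in the 3 numbers, at 109, 313 and 124 CPM across shCtr and 145, 465 and 203 CPM across shOSGEP (Log2FC 0.57, SE 0.609, unadjusted p = 0.372 by edgeR).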

How the data were processed

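Libraries of polyA RNA were made from 500 ng of total RNA with a TruSeq kit and read in pairs of 100 bases, per the labels. STAR 2.6.1d, Salmon 1.4.0 and GRCm38 stand in the submitters' processing notes, and the annotation release was not given in the sources used here. The values deposited by the authors are estimated counts per gene, written as whole numbers and not normalized, and were tested as counts. The kit was not stated to keep strand.

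Genes were kept by filterByExpr (minimum count 10, minimum total 15), scaled by TMM and tested two-sided by edgeR 4.0.16 (R 4.3.3) quasi-likelihood, 3 libraries against 3 without a block, with Benjamini-Hochberg adjustment over the 12669 genes. The SE is the Log2FC over the square root of F. TPM was the count over the length of a representative GENCODE M21 transcript. Paralogue ratios had 0.5 count added. DESeq2 1.42.0, limma 3.58.1 voom, other scaling, other filters, GC and length offsets, a replicate block and libraries left out were alternatives. The scripts were tested on simulated data. Floors of 3 counts cover counting error only. P-values measure the spread between libraries from separate infections. Without the block, this spread includes deviations that same-numbered libraries share and the library differences described above.

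Same-numbered libraries deviated together from their group means (correlations 0.811, 0.557 and 0.196), though only weakly in number 3. From this and the shared numbers, they were taken as pairs for the differences by number and the fits with a block. The main edgeR fit and the permutation test of the paralogue ratios did not use the pairs. Whether same-numbered libraries came from the same round of infection was not stated.

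Named genes were Osgep, the 2 factors of smallest p and the most abundant factor in each role, all with an unadjusted p under 0.05 or no overlap, both genes of each pair, and partners by the same p or overlap rule. Other genes were named after their values were seen. The members, lists and pairs were chosen with earlier results of these data known.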

Additional observations from a re-analysis of the deposited data

How the results depend on the processing

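The factors past the threshold of the study numbered 1 in the edgeR fit, 2 in limma-voom with quality weights and the replicate block (Eef1a2 and Eif4a2), 0 with at least 10 counts in every library, and 0 to 3 with a library or replicate number 2 left out (3, Eef1a2, Eif4a2 and Eif4a3, without shCtr replicate 1). Over all genes the count was 256 and became 560 in limma-voom with quality weights, 1442 with the block added, 599 without a count filter, 692 with GC and length offsets, 860 with offsets and the block, 373 with the replicate block in edgeR, and 67 (without shOSGEP replicate 2) to 453 (without shCtr replicate 1) with libraries left out. The biological coefficient of variation was 0.566, and 0.278 with offsets and the block. The factors' median Log2FC ran from -0.40 to 0.01 and the TOP median from -0.96 to 0.12 with libraries left out, and the median of all genes from -0.13 to 0.044.

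Signs turned, without a call, for the genes below. In limma-voom with quality weights Eif1ad was 0.10, Eif1ax -0.032, Eif4e2 -0.058, Eif4g3 -0.012 and Eif6 0.084, and with the block added Eif1ad was 0.043, Eif1ax -0.23, Eif4e2 -0.046, Eif4g1 0.028 and Eif6 0.069. Eif4e2 was -0.016 in DESeq2 and with its scaling, -0.024 with offsets and -0.0070 with the replicate block. With offsets and the block Eif1ax was -0.12 and Eif4e2 -0.023. With at least 10 counts in every library Eif4e was 0.00066 and Eif4enif1 0.0013. With libraries left out the ranges crossed 0 for Eef1akmt1 (-1.04 to 0.37), Eif1 (-0.034 to 0.64), Eif1a (-0.050 to 1.21), Eif1ad (-0.46 to 0.36), Eif1ax (-0.26 to 0.80), Eif1b (-0.74 to 0.14), Eif3g (-1.08 to 0.23), Eif3h (-0.92 to 0.30), Eif3j1 (-0.29 to 0.89), Eif3j2 (-0.94 to 0.37), Eif4e (-0.22 to 0.12), Eif4e2 (-0.23 to 0.21), Eif4enif1 (-0.22 to 0.11), Eif4g1 (-0.88 to 0.011), Eif4g3 (-0.14 to 0.49), Eif5a (-1.15 to 0.11), Eif5a2 (-0.19 to 0.95), Eif6 (-1.11 to 0.57) and Etf1 (-0.10 to 0.90), and for the log2 ratios of Eif4e to Eif4e2 (-0.38 to 0.31) and Eif5a to Eif5a2 (-2.58 to 0.40). The cause was not tested. Of all single-gene alternatives 469 kept direction and side of the threshold, 9 gained the call, 10 lost it and 52 turned.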
